A study of Mus musculus with 24 samples.

Results

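The genes described here are 52 neighbours of Ffar4 on mouse chromosome 19. Ffar4 encodes GPR120, the receptor for long-chain fatty acids that is disrupted in the knockout (KO) mice of this series. A probe set, the group of short probes by which the array reads a transcript, was taken when the platform annotation gave it to a single member gene, which left 130 probe sets of the 52 genes, out of 45037 probe sets and 18193 genes in all. In the GRCm38.p6 gene table Ffar4 lies at chr19:38097079-38114263, and the starts of the members run from 9.11 Mb on its lower side (Cdc37l1) to 4.66 Mb on its upper side (Hps1). Of the members, 20 lie on the lower side and 32 on the upper side, and 81 further genes of the same stretch, with 125 probe sets, served for comparison.

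Epididymal adipose tissue and liver were taken from 12 mice and hybridised to 24 Affymetrix arrays. The groups were GPR120 KO mice on a high-fat diet (HFD), GPR120 KO mice on a normal diet (ND), wild-type (WT) mice on HFD and WT mice on ND, each with 3 mice and 2 tissues. Every mouse is labelled as having a mixed 129/Sv and C57BL/6 background. The labels used here give no age, no promoter or Cre driver and no description of the deleted part of Ffar4, and they do not say whether KO and WT mice were littermates. KO was compared with WT within each tissue and diet, called the 4 strata below.

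GPR120 is known as a G protein-coupled receptor of adipocytes, macrophages and gut cells that responds to omega-3 and other long-chain fatty acids. Mice in which a gene is disrupted are commonly made in embryonic stem cells of a 129 strain and crossed to C57BL/6. Chromosomes recombine little near the selected site, so such KO mice can carry alleles of the stem cell strain at the genes around it while WT mice carry those of the other strain. Levels of neighbouring transcripts in a KO mouse can thus follow the disrupted gene, the strain of the flanking DNA, or probes that bind alleles of the strains unequally. The strain of the DNA around Ffar4 was not measured in the files used here, so these cannot be told apart below.

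Values are MAS5 signals in intensity units, a linear scale on which the authors set every array to a common trimmed mean. Array medians were 13.5 to 25.8, and Spearman's correlation between arrays of a group was 0.889 to 0.964. With 3 arrays a group, that number sets the precision. Differences are log2 KO minus WT ± SE from limma, and a probe set was called when its Benjamini-Hochberg adjusted p, over all probe sets tested, was under 0.05. A tissue's brighter probe sets were tested, those with a mean log2 signal at or above the middle probe set's (19.3 in adipose tissue and 13.0 in liver).

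Of 5 adipocyte markers read, 5 passed the filter in adipose tissue, and of 5 hepatocyte markers 5 in liver. Other tissue and RNA quality moved with some groups. ND fat of both genotypes carried transcripts of the epididymis and sperm, with 7 markers that summed to 26410 to 32322 on KO arrays and 30806 to 43219 on WT arrays, against 18.4 to 583 on KO HFD and 97.9 to 223 on WT HFD arrays. The adipose KO HFD array of mouse 427 held the epithelial marker Krt19 (406), which ND arrays of both genotypes also held. The WT HFD arrays of mice 546 and 547 held the muscle marker Myh4 (227 and 918), and the WT ND arrays of mice 686 and 690 the sperm marker Prm1 (4371 and 4617). Macrophage markers summed to 10995 to 17444 on KO and 4399 to 6582 on WT adipose HFD arrays, and 8 of 8 were higher. Endothelial markers summed to 1070 to 1669 on KO and 3661 to 3753 on WT adipose HFD arrays, and 6 of 6 were lower. The log2 ratio of 3' to 5' Actb probe sets, which tracks RNA quality, was 0.622 to 0.799 on KO and 1.13 to 1.68 on WT adipose HFD arrays. It was 0.723 to 0.851 on KO and 0.879 to 0.918 on WT adipose ND arrays, and 1.69 to 1.71 on KO and 1.99 to 2.09 on WT liver HFD arrays, without overlap, while on liver ND arrays the genotypes overlapped (1.24 to 1.34 on KO and 1.11 to 1.25 on WT arrays). In liver on HFD, 3 of 3 adipocyte markers tested were higher (sums of 989 to 1217 on KO and 311 to 376 on WT arrays). There 2 of 5 hepatocyte markers were lower (39081 to 44502 on KO and 49531 to 57290 on WT arrays), and 1 of 7 macrophage markers was higher (3286 to 4112 on KO and 2578 to 3235 on WT arrays). The part of these in the results below was not tested. In bulk tissue, fewer cells of a type and less RNA per cell cannot be told apart.

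Ffar4 itself was low in KO fat. Its probe set (1439489_at) read 26.5, 30.5 and 23.1 on KO and 97.3, 126 and 171 on WT adipose HFD arrays. On ND it read 34.2, 33.7 and 35.7 on KO and 61.95, 58.3 and 73.7 on WT arrays. The genotypes did not overlap on either diet, with log2 differences of -2.27 ± 0.21 on HFD (limma adjusted p = 0.000189) and -0.90 ± 0.21 on ND (adjusted p = 0.124). In liver it ran the other way, again without overlap on either diet. On HFD it read 13.5 to 18.3 on KO and 0.55 to 1.63 on WT liver arrays. On ND it read 21.5 to 36.8 on KO and 1.07 to 17.3 on WT liver arrays. Over all liver arrays the probe set was under the filter, though its KO group means (15.9 on HFD and 27.1 on ND) lay above that level. The sources used here do not say where it lies relative to the deleted part.

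Averaged over both tissues and both diets, 16 of 71 member probe sets differed between KO and WT mice, from 13 of 39 genes. In this comparison the mouse was the unit: adipose and liver log2 values of each of 12 mice were averaged first. Among the members 10 probe sets were higher and 6 lower in KO mice, 22.5% of those tested, against 12% of all 19451 probe sets (7.00% higher and 5.01% lower). At an unadjusted p under 0.05 there were 26 of 71, against 28.3% of all probe sets. The other genes of the stretch gave 9 of 57 (15.8%). The median difference of the members was -0.03, as for all probe sets, while the median size regardless of sign was 0.16 against 0.15. The genes higher in KO mice were Pyroxd2, Lipa (3 probe sets), Tm9sf3 (2 probe sets), Entpd1, Blnk, Tbc1d12 and Pgam1, and those lower were Lcor, Fra10ac1, Ric1, Cdc37l1, Marveld1 and Noc3l. Every ND adipose array was high in epididymis markers, also those kept when the mice named next were left out. Without mice 427, 547, 686 and 690, whose arrays held other tissue, 7 of 72 were called (5.10% of all probe sets), and without mouse 546 as well 4 of 72 (4.41%): Pyroxd2, Lcor and 2 Lipa probe sets.

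**Figure D1:**
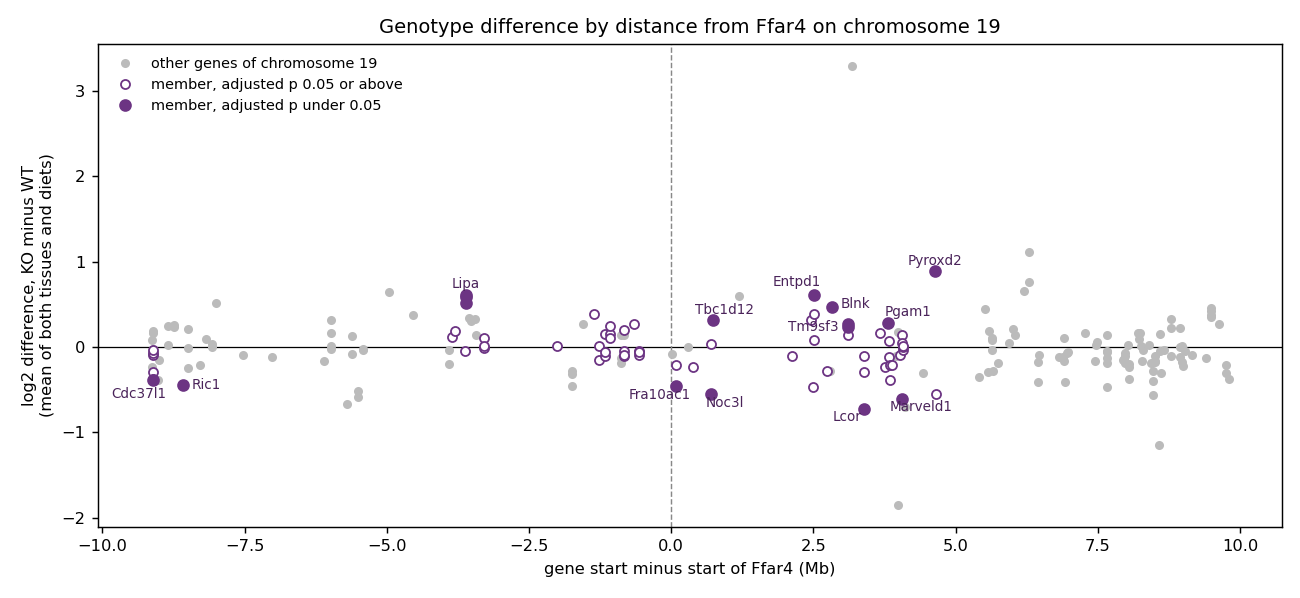
Log2 difference KO minus WT, averaged over both tissues and diets, of every single-gene probe set tested within 10 Mb of Ffar4 on chromosome 19, by the distance of gene starts (Mb). Filled purple points are called members, open points other members and grey points other genes. Called members lie on both sides of 0 and on both sides of Ffar4, and the highest grey point is Pik3ap1 at 3.29.

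The share of called probe sets varied with the distance from Ffar4. Over all single-gene probe sets, 4 of 13 were called between 5 and 7.5 Mb below its start (30.8%, with no member among them), 4 of 17 between 2.5 and 5 Mb below (23.5%), 1 of 26 between 0 and 2.5 Mb below (3.85%) and 3 of 12 between 0 and 2.5 Mb above it (25.0%). Between 2.5 and 5 Mb above, where Entpd1, Blnk, Tm9sf3, Lcor, Pgam1, Marveld1 and Pyroxd2 lie, 10 of 35 were called (28.6%). The shares were 17.4% within 10 Mb (37 of 213), 11.6% on the rest of chromosome 19 (47 of 406) and 12.3% on other chromosomes (1990 of 16230). They did not fall steadily with distance. Between 5 and 7.5 Mb above the share was 20.7%, and between 7.5 and 10 Mb it was 11.1% on either side. Between 10 and 20 Mb it was 20.8% below and 9.09% above. Beyond 20 Mb it was 9.93% below and 18.2% above. These shares are a description and were not tested. Among probe sets tested in both tissues, the largest mean differences of the stretch were in genes that are no members. Pik3ap1, which starts near Tm9sf3, was at 3.29 ± 0.10 (limma adjusted p = 2.35e-09). Pi4k2a, which starts between Morn4 and Avpi1, was at -1.85 by 1 of its 2 tested probe sets (adjusted p = 6.33e-06) and 0.18 by the other. In liver by itself, the other genes of the stretch ran wider, from -5.74 to 7.89 on HFD and from -5.92 to 5.5 on ND.

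Most member probe sets had mixed signs over the strata. The sign of the difference was the same in all 4 strata for 22 of 71 probe sets (31.0%), against 19.2% of all probe sets. For 0 of 71 did the sign agree and the genotypes stay apart in all 4 strata, against 0.406% of all probe sets. The genotypes did not overlap in 3 or more strata, whatever the sign, for 13 of the 71 (18.3%), against 7.77% of all probe sets. They were Pyroxd2, Pgam1, Tbc1d12, Lcor, Fra10ac1 and Noc3l with the same sign in all 4, and Lipa, Tnks2, Cpeb3, Hhex, Plce1, Pdlim1 and Mms19 with mixed signs.

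By stratum, adipose tissue on HFD held most of the calls. There 21 of 81 member probe sets were called, 12 higher and 9 lower (25.9%), against 19.7% of all probe sets (9.40% higher and 10.3% lower). Of the 81, 39 had an unadjusted p under 0.05, against 33.6% of all probe sets, and 44 (54.3%) did not overlap, against 35.8%. Without mice 427, 546 and 547, 14 of 83 were called, against 12.5% of all probe sets. On ND 0 of 81 were called in adipose tissue by limma, with 14 at an unadjusted p under 0.05, against 0.222% of all probe sets called and 13.0% at that unadjusted p. In liver 5 of 82 were called on HFD, 4 higher and 1 lower (6.10%), against 5.19% of all probe sets (2.69% higher). These were in Pyroxd2, Pgam1, Ric1, Tm9sf3 and Cpeb3, in the stratum in which adipocyte markers were higher and hepatocyte markers lower in KO liver, whose part was not tested. On ND 7 of 82 were called in liver, 4 higher and 3 lower (8.54%), against 2.96% (1.44% higher and 1.52% lower). The genotypes did not overlap for 25 of 81 in adipose tissue on ND (30.9%, against 21.8%), 22 of 82 in liver on HFD (26.8%, against 27.4%) and 25 of 82 in liver on ND (30.5%, against 23.6%).

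**Figure D2:**
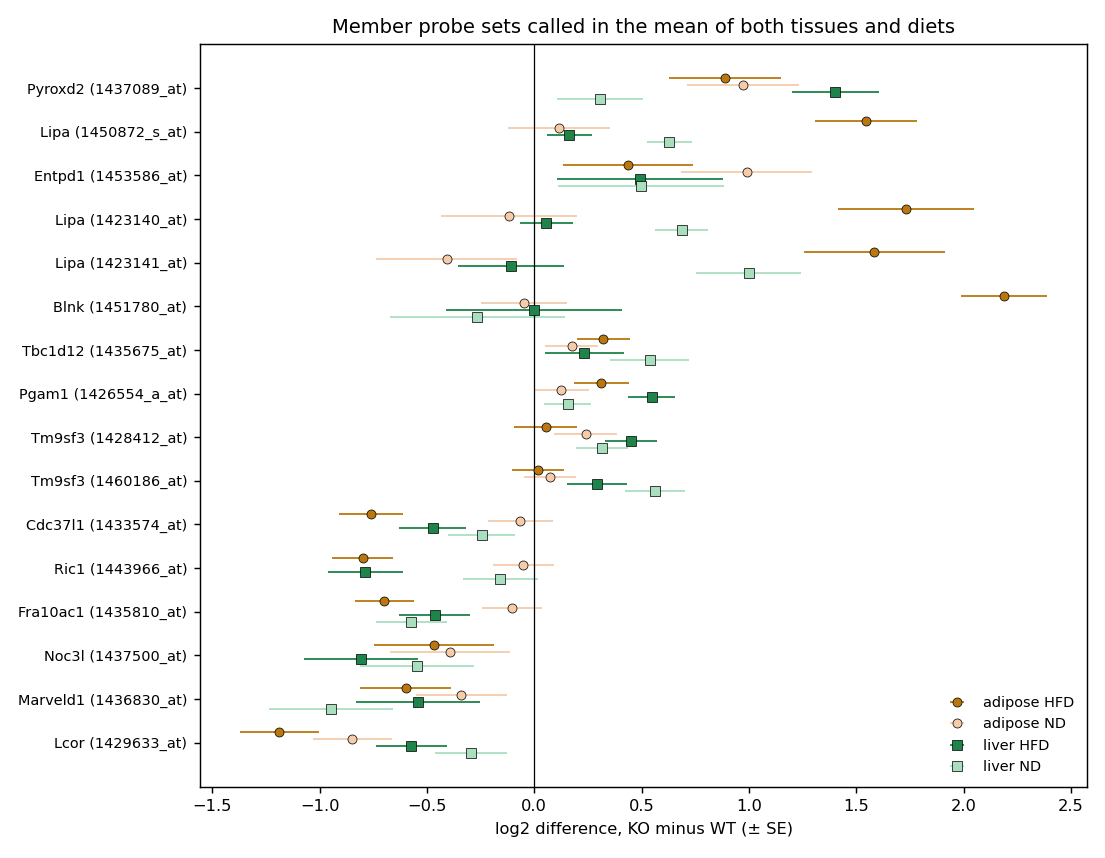
Log2 difference KO minus WT ± SE in each tissue and diet (x axis) of the 16 member probe sets called in the mean of the 4 strata (y axis). Circles are adipose tissue, squares liver, dark colours HFD and light colours ND. The 3 Lipa probe sets and Blnk stand far to the right in adipose tissue on HFD, while Pyroxd2 is above 0 and Lcor below 0 in every stratum.

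The 4 genes of smallest adjusted p in the mean, Pyroxd2 and Lipa (higher in KO mice) and Lcor and Fra10ac1 (lower), lie on both sides of Ffar4. Their promoters are shown so that their make-up can be compared with that of other promoters. Each runs 5′ to 3′ on the gene's strand, from 250 bases before to 50 after a transcript start, in RefSeq's annotation of GRCm38.p6. Capitals mark matches on either strand to GGGCGG (the GC box), CCAAT (the CCAAT box), TATAAA (the TATA box) and CACGTG (the E-box), and overlapping matches run together.
Pyroxd2, chr19:42752726-42753025, minus strand: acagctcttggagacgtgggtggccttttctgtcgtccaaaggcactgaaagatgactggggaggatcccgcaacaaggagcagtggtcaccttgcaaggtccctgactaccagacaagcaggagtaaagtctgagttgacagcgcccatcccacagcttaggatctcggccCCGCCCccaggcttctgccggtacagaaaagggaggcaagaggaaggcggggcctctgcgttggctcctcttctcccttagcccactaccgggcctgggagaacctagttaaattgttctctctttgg
Lipa, chr19:34527425-34527724, minus strand: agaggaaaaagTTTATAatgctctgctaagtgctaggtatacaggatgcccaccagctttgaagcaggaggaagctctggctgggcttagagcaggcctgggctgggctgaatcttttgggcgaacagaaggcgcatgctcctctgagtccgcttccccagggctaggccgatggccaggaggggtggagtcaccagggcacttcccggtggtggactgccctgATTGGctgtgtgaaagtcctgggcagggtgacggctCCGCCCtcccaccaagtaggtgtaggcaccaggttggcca
Lcor, chr19:41482432-41482731, plus strand: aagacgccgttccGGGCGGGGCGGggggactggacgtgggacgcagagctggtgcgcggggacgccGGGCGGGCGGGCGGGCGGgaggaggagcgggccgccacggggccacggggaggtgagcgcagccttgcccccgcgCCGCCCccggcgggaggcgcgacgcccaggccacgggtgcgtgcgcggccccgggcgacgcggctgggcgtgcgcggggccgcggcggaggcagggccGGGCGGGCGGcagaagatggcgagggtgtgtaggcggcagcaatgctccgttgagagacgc
Fra10ac1, chr19:38224103-38224402, minus strand: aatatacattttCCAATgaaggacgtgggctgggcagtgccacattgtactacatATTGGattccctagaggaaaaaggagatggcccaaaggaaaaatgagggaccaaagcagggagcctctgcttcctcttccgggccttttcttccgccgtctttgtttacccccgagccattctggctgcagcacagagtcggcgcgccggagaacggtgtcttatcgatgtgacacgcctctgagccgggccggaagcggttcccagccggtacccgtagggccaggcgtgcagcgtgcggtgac

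The Lcor promoter held 9 matches to GGGCGG, the Pyroxd2 and Lipa promoters 1 each and the Fra10ac1 promoter 0. The Lipa promoter also held 1 CCAAT and 1 TATAAA, and the Fra10ac1 promoter 2 CCAAT. RefSeq promoters were found for 49 of the 52 members (57 promoters). GGGCGG was in 50.9% of them, against 35.7% of all 32851 promoters, CCAAT in 42.1% against 37.4%, TATAAA in 12.3% against 13.6% and CACGTG in 10.5% against 7.15%. These are matches of letters, not sites of a factor.

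Among enzymes of metabolism, 6 of 18 probe sets (4 of 9 genes) were higher in KO mice in the mean over the strata and 0 were lower. Lipa alone gave 3 of the 6. The shares of all probe sets were 7.00% higher and 5.01% lower. Pyroxd2 (1437089_at), a mitochondrial protein of the pyridine nucleotide-disulphide oxidoreductase family, had the smallest adjusted p of all members. It read 66.7, 53.7 and 41.6 on KO and 30.8, 19.99 and 38.4 on WT adipose HFD arrays. On ND it read 131, 139 and 99.55 on KO and 63.6, 52.5 and 71.6 on WT adipose arrays. Pyroxd2 was thus higher in KO fat on either diet, with no overlap. In liver it read 143, 121 and 175 on KO and 47.0, 68.3 and 50.9 on WT arrays on HFD, and 79.9, 97.9 and 94.3 on KO and 60.1, 73.8 and 88.0 on WT arrays on ND, where the genotypes overlapped. Its differences were 0.89 ± 0.26 in adipose HFD (adjusted p = 0.0348), 0.97 ± 0.26 in adipose ND (0.164), 1.40 ± 0.20 in liver HFD (0.00203) and 0.31 ± 0.20 in liver ND (0.447), and the mean was 0.89 ± 0.10 (1.86-fold, limma adjusted p = 0.000414). The other probe sets of Pyroxd2, tested in liver only, were at 0.23 and 0.33 on HFD and 0.01 and 0.22 on ND.

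Lipa encodes lysosomal acid lipase, which hydrolyses cholesteryl esters and triglycerides taken into lysosomes. The probe set 1450872_s_at read 1384, 1714 and 2826 on KO and 557, 814 and 594 on WT adipose HFD arrays. In liver on ND it read 1145, 1202 and 1107 on KO and 709, 816 and 711 on WT arrays. Those are the 2 strata in which Lipa rose, by 1.55 ± 0.24 (2.92-fold, adjusted p = 0.00173) and 0.63 ± 0.10 (1.55-fold, adjusted p = 0.00738). In the others the genotypes overlapped by this probe set: 187 to 199.9 on KO and 149 to 210.2 on WT arrays in adipose tissue on ND, and 1033 to 1258 on KO and 972 to 1122 on WT arrays in liver on HFD. By 1423141_at they did not overlap in adipose tissue on ND and ran the other way, at 31.6 to 36.8 on KO and 39.8 to 58.3 on WT arrays (-0.41, adjusted p = 0.677). All 3 Lipa probe sets were called in these 2 strata and in the mean, at 0.61 ± 0.08, 0.59 ± 0.11 and 0.52 ± 0.13 (limma adjusted p = 0.000936, 0.00514 and 0.0257). The adipose HFD rise went with the macrophage markers, whose part was not tested. With the mouse as a replicate block the liver ND rise lost its call in all 3 probe sets (adjusted p = 0.0643, 0.129 and 0.0712).

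Further enzymes were called in the mean. Pgam1, phosphoglycerate mutase of glycolysis, was at 0.29 ± 0.06 (1.22-fold, limma adjusted p = 0.0104). It was clearest in liver on HFD, with 846, 754 and 811 on KO and 596, 512 and 544 on WT arrays (0.55 ± 0.11, adjusted p = 0.0138). Entpd1 (1453586_at), the ectoenzyme CD39 that breaks down extracellular ATP, was at 0.60 ± 0.17 (adjusted p = 0.0415). Entpd1 read 127 to 129 on KO and 34.7 to 88.3 on WT adipose ND arrays, and its other probe sets were at 0.08 and 0.38 in the mean. Its call was lost under 12 of 21 alternatives, among them no filter and leaving out any of 9 single mice (0.0136 to 0.208 over all of them). Aldh18a1, which makes the precursor of proline, rose in adipose tissue on HFD, at 201, 199 and 241 on KO and 133, 141 and 100.02 on WT arrays by 1437325_x_at (0.79 ± 0.18, adjusted p = 0.0107). In liver on HFD it was at 0.71 without a call (adjusted p = 0.408). In adipose tissue on HFD, Aldh18a1 was at 0.87 by 1435855_x_at (adjusted p = 0.0472) and at 0.27 without a call by 1437333_x_at (adjusted p = 0.416). Enzymes with no call in any stratum were Pank1, a coenzyme A synthesis kinase, Ppp1r3c, a glycogen-targeting subunit, Ide, the insulin-degrading enzyme, Ch25h, cholesterol 25-hydroxylase, and Cyp26a1, which clears retinoic acid.

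**Figure D3:**
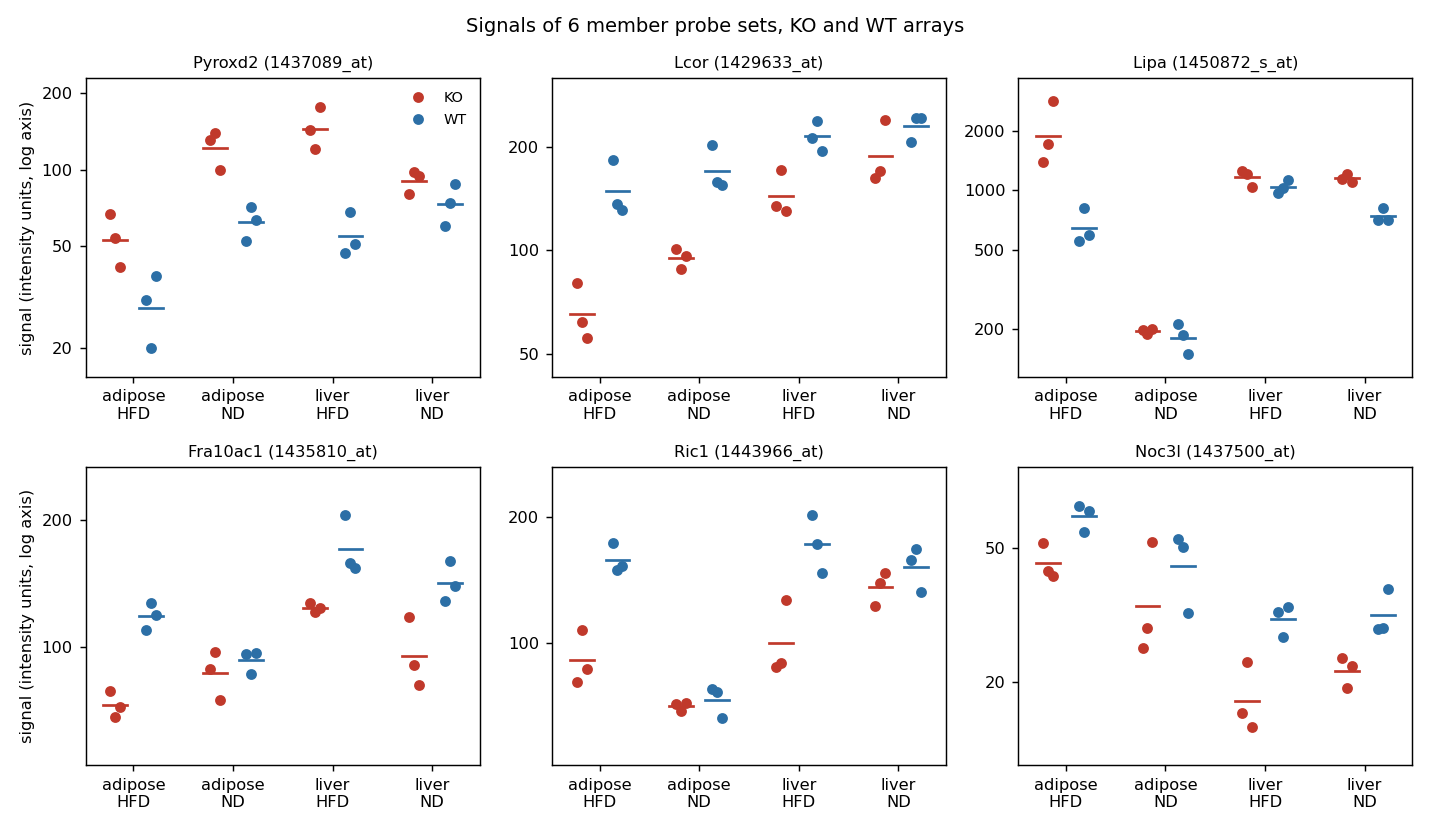
Signals (intensity units, log axis) of 6 member probe sets on every array, KO left of WT in each tissue and diet. Points are mice and lines the mean of log2 values. The KO lines of Lcor and Noc3l lie below and those of Pyroxd2 above the WT lines in each stratum, and the gap of Lipa is widest in adipose tissue on HFD.

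Among RNA and transcription genes, 3 of 17 probe sets were lower in KO mice in the mean and 0 were higher. Of all probe sets, 5.01% were lower and 7.00% higher. Lcor encodes a corepressor that binds nuclear receptors. Its probe set 1429633_at read 80.45, 62.03 and 55.7 on KO and 183, 136 and 131 on WT adipose HFD arrays. On ND it read 100.7, 88.0 and 96.4 on KO and 155, 203 and 158 on WT adipose arrays. In liver it read 135, 171 and 131 on KO and 213, 239 and 195 on WT arrays on HFD, and 163, 170.1 and 241 on KO and 207, 243 and 244 on WT arrays on ND. Only in liver on ND did a KO array reach the WT range. The differences were -1.19 ± 0.18 (adjusted p = 0.00174), -0.85 ± 0.18 (0.104), -0.57 ± 0.17 (0.0637) and -0.29 ± 0.17 (0.363) in that order, with a mean of -0.73 ± 0.09 (1.65-fold lower, limma adjusted p = 0.000704). Its probe sets 1443779_s_at and 1455121_at also fell in adipose tissue on HFD (-0.68 and -0.91), while their means over the strata were -0.11 and -0.30 (adjusted p = 0.301 and 0.123). In liver on ND they ran higher in KO mice without a call, at 0.35 and 0.31 (adjusted p = 0.159 and 0.538), so the probe sets of Lcor disagreed there.

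Fra10ac1, named for a fragile site of the human genome, starts 91.4 kb above Ffar4 and is the nearest member called in the mean. Its probe set 1435810_at read 78.65, 68.3 and 72.2 on KO and 109.6, 127 and 119 on WT adipose HFD arrays. In liver it read 127, 121 and 124 on KO and 205, 158 and 154 on WT arrays on HFD, and 118, 90.9 and 81.3 on KO and 129, 160.0 and 139 on WT arrays on ND. The genotypes stayed apart in these 3 strata and overlapped in adipose tissue on ND, at 75.1 to 97.6 on KO and 86.5 to 96.7 on WT arrays. The mean difference was -0.46 ± 0.08 (1.38-fold lower, limma adjusted p = 0.00448), and the other probe set was at -0.22 (adjusted p = 0.176). Noc3l, a nucleolar protein of ribosome assembly, was lower by 1437500_at at -0.55 ± 0.14 (adjusted p = 0.0258), with 14.7 to 23.0 on KO and 27.3 to 33.3 on WT liver HFD arrays. Its other probe set ran at 0.04 in the mean and 0.72 in adipose tissue on HFD, so the probe sets of Noc3l disagreed.

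Hhex, a homeobox factor of liver development, rose in adipose tissue on HFD at 133, 199 and 199.6 on KO and 86.9, 119.6 and 119 on WT arrays (0.70 ± 0.21, adjusted p = 0.0373). In liver on HFD its 718 to 749 on KO arrays lay under the 1041 to 1386 of WT arrays (-0.76, adjusted p = 0.15), and the difference between tissues did not pass (0.96, adjusted p = 0.106). Btaf1, which removes TATA-binding protein from DNA, was higher by 1 of 3 probe sets in adipose tissue on HFD (0.64 ± 0.16, adjusted p = 0.0156). Cpeb3, an RNA-binding regulator of translation, is described with the tissues below. Rpp30 (a ribonuclease P subunit), Rrp12 (ribosome export) and Exosc1 (an exosome subunit) had no call.

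Among membrane, traffic and cytoskeleton genes, 3 of 18 probe sets were higher and 2 lower in the mean. Of all probe sets, 7.00% were higher and 5.01% lower. Ric1, a partner in the exchange factor of Rab6 at the Golgi, lies 8.58 Mb below Ffar4. Its probe set 1443966_at read 80.9, 107.9 and 87.0 on KO and 174, 149.97 and 153 on WT adipose HFD arrays, and 88.1, 89.85 and 127 on KO and 203, 173 and 147 on WT liver HFD arrays. By this probe set Ric1 fell on HFD in both tissues, by 0.80 ± 0.14 in adipose tissue (adjusted p = 0.00331) and 0.79 ± 0.17 in liver (adjusted p = 0.0227). The liver call was lost under 6 of 13 alternatives. On ND the genotypes overlapped in both tissues, and the mean over the strata was -0.45 ± 0.08 (1.36-fold lower, limma adjusted p = 0.00598). The other probe set of Ric1, tested in liver only, did not fall, at 0.07 on HFD and 0.28 on ND (adjusted p = 0.955 and 0.809). Tm9sf3, a membrane protein of the secretory pathway, was higher by 0.24 ± 0.06 and 0.26 ± 0.06 with 2 of its 3 tested probe sets (adjusted p = 0.0197 and 0.02), and 0.13 with the other. It was called in liver only among the strata, for example at 776, 813 and 874 on KO and 667, 459 and 559 on WT ND arrays by 1460186_at (0.56 ± 0.14, adjusted p = 0.0457). Tbc1d12, of the Rab GTPase-activating family, was at 0.32 ± 0.08 (adjusted p = 0.0268), with 154 to 174 on KO and 125 to 136 on WT adipose HFD arrays. Marveld1, of the MARVEL domain family, was lower by 1436830_at at -0.61 ± 0.14 (adjusted p = 0.0162) while its other tested probe sets were at 0.13 and 0.05, so its probe sets disagreed.

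Other genes of this group were called in single strata. Myof, a ferlin of membrane repair that starts 198 kb below Ffar4, read 213, 212 and 447 on KO and 59.3, 134 and 62.4 on WT adipose HFD arrays (1.78 ± 0.33, 3.44-fold, limma adjusted p = 0.00403). On ND its 113 to 139 on KO arrays lay under the 166 to 187 of WT arrays (-0.52, adjusted p = 0.568), and in liver it was under the filter. Morn4 read 59.0, 53.6 and 41.1 on KO and 19.98, 13.7 and 11.2 on WT adipose HFD arrays. It was at least 2.65-fold higher, set against the filter level because the WT mean of 15.0 lay under it (adjusted p = 0.0052). Exoc6, a subunit of the exocyst, read 233, 252 and 174 on KO and 402, 395 and 304 on WT adipose HFD arrays by 1460576_at (-0.75 ± 0.17, adjusted p = 0.0107), and is taken up again with diet below. Hps1, a subunit of a Rab exchange factor for lysosome-related organelles, read 106, 44.1 and 97.95 on KO and 202, 206 and 162 on WT liver ND arrays (-1.29 ± 0.27, adjusted p = 0.0252), with negative differences in the other strata and a mean of -0.56 (adjusted p = 0.053). Zdhhc16, a palmitoyl transferase, rose by 0.38 ± 0.11 in adipose tissue on HFD (adjusted p = 0.0361). Acta2, smooth muscle actin, had no call and read 4306, 2833 and 1845 on KO and 3549, 2977 and 2724 on WT adipose HFD arrays by its brightest probe set (-0.12, adjusted p = 0.788), highest in mouse 427. Zfyve27 and Crtac1 had no call.

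Among signalling and cell death genes, 1 of 13 probe sets was higher and 1 lower in the mean. Of all probe sets, 7.00% were higher and 5.01% lower. Cdc37l1, a relative of the HSP90 cochaperone CDC37, was the member farthest below Ffar4. It was lower by 1433574_at at -0.39 ± 0.09 (1.31-fold, limma adjusted p = 0.0139), with 122, 91.1 and 109 on KO and 182, 164 and 197 on WT adipose HFD arrays. All 6 of its probe sets had negative means, -0.04 to -0.39, and 1 was called. Blnk, an adaptor of B cell and myeloid receptor signalling, had the largest difference of all members in adipose tissue on HFD, at 898, 879 and 1387 on KO and 191, 253 and 239 on WT arrays (2.19 ± 0.20, 4.56-fold, adjusted p = 0.000186). Elsewhere its genotypes overlapped, with 316 to 418 on KO and 306 to 426 on WT arrays in adipose tissue on ND and differences of 0.00 and -0.27 in liver, where it was dim. Its mean over the strata was 0.47 ± 0.13 (adjusted p = 0.033, or 0.0535 with the mouse as a replicate block), and 8 of 8 macrophage markers were also higher in adipose tissue on HFD. Of 2 B cell markers read, 0 passed the filter in adipose tissue, with a sum of 7.52 to 132 on KO and 12.2 to 114 on WT HFD arrays. Plce1, a phospholipase C that acts downstream of Ras, fell in adipose tissue on HFD (-0.61 ± 0.18, adjusted p = 0.0355), at 140.4, 217 and 133 on KO and 276, 233 and 224 on WT arrays. Fas, the death receptor, Tctn3, of the ciliary transition zone, Ubtd1 and Frat2 had no call.

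Among genes of cell division and genome upkeep, 0 of 5 probe sets were called in the mean by limma, with 2 at an unadjusted p under 0.05. The mitotic genes were read in adipose tissue alone. Cep55, a protein of the last step of cell division that starts 42.1 kb below Ffar4 and is its nearest member on that side, read 107, 57.5 and 103 on KO and 22.1, 34.2 and 15.4 on WT HFD arrays by 1452242_at (1.93 ± 0.67, adjusted p = 0.0665). Hells, a chromatin remodeller, read 58.8, 45.8 and 52.8 on KO and 21.4, 26.4 and 19.3 on WT HFD arrays (1.24, adjusted p = 0.133), and Kif20b, a mitotic kinesin, 49.5, 26.1 and 39.7 on KO and 20.6, 17.9 and 5.88 on WT HFD arrays (at least 1.99-fold, set against the filter level, adjusted p = 0.123). No KO array overlapped a WT array for any of these genes on HFD, yet none passed. Of all probe sets in adipose tissue on HFD, 35.8% did not overlap. On ND the WT array of mouse 686 was highest, with 94.5 for Cep55, 82.1 for Hells and 85.0 for Kif20b, against at most 24.2, 23.7 and 22.0 on KO arrays. Dividing cell markers summed to 489 to 883 on KO and 130 to 250 on WT adipose HFD arrays, and to 89.9 to 128 on KO and 92.4 to 483 on WT adipose ND arrays. Their part in these values was not tested. Tnks2, tankyrase, fell in adipose tissue on HFD by 1447522_s_at (-0.44 ± 0.12, adjusted p = 0.0221), and Ccnj, cyclin J, was at -0.96 there without a call.

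The KO difference depended on tissue for 4 of 71 member probe sets, 3 with a higher and 1 with a lower difference in adipose tissue (5.63%, against 3.34% of all probe sets, 1.86% higher and 1.48% lower). This was tested on the adipose minus liver log2 value of each mouse. Avpi1, a gene induced by vasopressin, ran higher in KO fat on ND, at 240.1, 322 and 256 on KO and 159, 206 and 179.7 on WT arrays, and lower in KO liver on ND, at 227, 214 and 216 on KO and 355, 357 and 286 on WT arrays. The difference between tissues was 0.80 ± 0.15 (limma adjusted p = 0.0255). Pdlim1, an actin-binding LIM protein, was at 225, 229 and 216 on KO and 311, 299 and 284 on WT liver HFD arrays, while KO arrays were not lower in fat (0.86 ± 0.18 between tissues, adjusted p = 0.0323). Mms19, which helps to load iron-sulphur clusters into DNA repair enzymes, was the only member probe set whose genotypes did not overlap in any stratum, with mixed signs: 0.37 in adipose HFD and -0.24, -0.49 and -0.51 in adipose ND, liver HFD and liver ND (0.57 ± 0.12 between tissues, adjusted p = 0.0351). Cpeb3 ran the other way, with -0.40 in adipose HFD, 0.25 in adipose ND, and 0.56 in liver on either diet (-0.64 ± 0.15 between tissues, adjusted p = 0.0404). In liver on HFD this probe set read 178, 154.5 and 182 on KO and 129.8, 119.6 and 99.94 on WT arrays (adjusted p = 0.0487). By 1437765_at and 1456048_at the tissue difference of Cpeb3 was not called (-0.31 and -0.49, adjusted p = 0.446 and 0.293). By 1445868_at, tested in liver only, KO ran lower without a call, at -0.45 on HFD and -0.59 on ND, so the probe sets of Cpeb3 disagreed. With no filter 0 of these 4 calls were left, against 0.0977% of all probe sets. Leaving out single mice left 0 to 3, against 0.73% to 3.07% of all probe sets. Without mice 427, 546, 547, 686 and 690, members and all probe sets both had fewer calls.

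**Figure D4:**
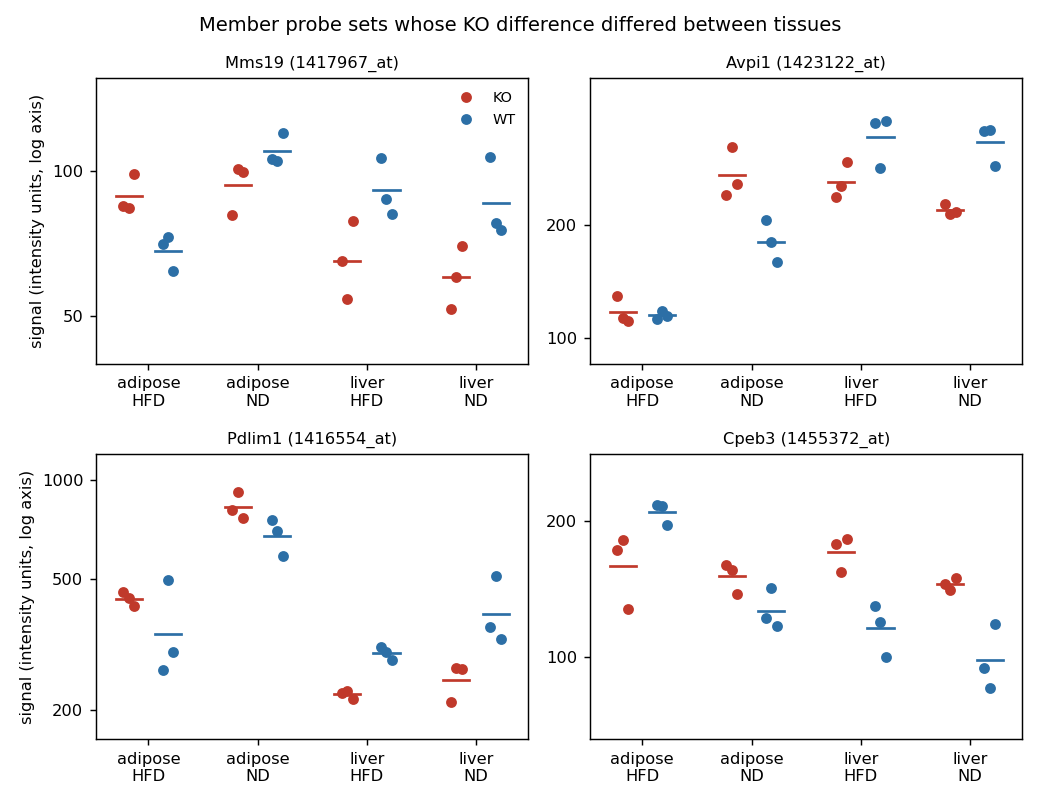
Signals (intensity units, log axis) of the 4 member probe sets whose KO difference differed between adipose tissue and liver, KO left of WT. Points are mice and lines the mean of log2 values. For Avpi1, Pdlim1 and Mms19 the KO lines lie below the WT lines in liver, and for Cpeb3 above them.

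The KO difference in fat depended on diet for 10 of 81 member probe sets, 6 of them with a higher and 4 with a lower difference on HFD (12.3%, against 8.34% of all probe sets, 2.86% higher and 5.48% lower). In liver 0 of 82 were called by limma, with 14 at an unadjusted p under 0.05 (0.546% of all probe sets called, 0.298% higher and 0.249% lower, and 14.0% at that unadjusted p). Blnk had the smallest adjusted p (2.24 ± 0.28 HFD minus ND, adjusted p = 0.00356), followed by Tnks2 (-0.94 ± 0.16, 0.00804), Exoc6 (-1.28 ± 0.24, 0.0109) and Myof (2.30 ± 0.46, 0.0152). For Exoc6 the direction turned with diet: on ND it read 165, 157 and 194 on KO and 109, 116 and 131 on WT arrays, with the KO arrays above, the opposite of HFD. The ND difference was not called (0.53, limma adjusted p = 0.217). By 1424230_at and 1424231_s_at Exoc6 turned in the same way, at -0.78 and -0.65 on HFD and 0.66 and 0.48 on ND. Their diet differences were not called (-1.44 and -1.13, adjusted p = 0.198 and 0.0582). Tnks2 likewise read 274, 264 and 276 on KO and 417, 334 and 355 on WT arrays on HFD by 1447522_s_at. On ND this probe set read 284, 288 and 289 on KO and 191, 229 and 189 on WT arrays, without a call (0.50, adjusted p = 0.12). By 1428388_at Tnks2 did not turn, at -0.36 on HFD and -0.001 on ND, and its diet difference was not called (adjusted p = 0.198). Arhgap19, a GTPase-activating protein, was at 0.95 on HFD and -0.75 on ND (1.70 ± 0.44, adjusted p = 0.0355). Because epididymis and sperm markers were high on ND arrays of both genotypes and low on HFD arrays, diet and that tissue cannot be told apart here. The count was 4 to 19 when single mice were left out, the highest without mouse 687, against 3.9% to 10.2% of all probe sets. Without mice 427, 546, 547, 686 and 690, members and all probe sets both had fewer calls than with all mice.

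**Figure D5:**
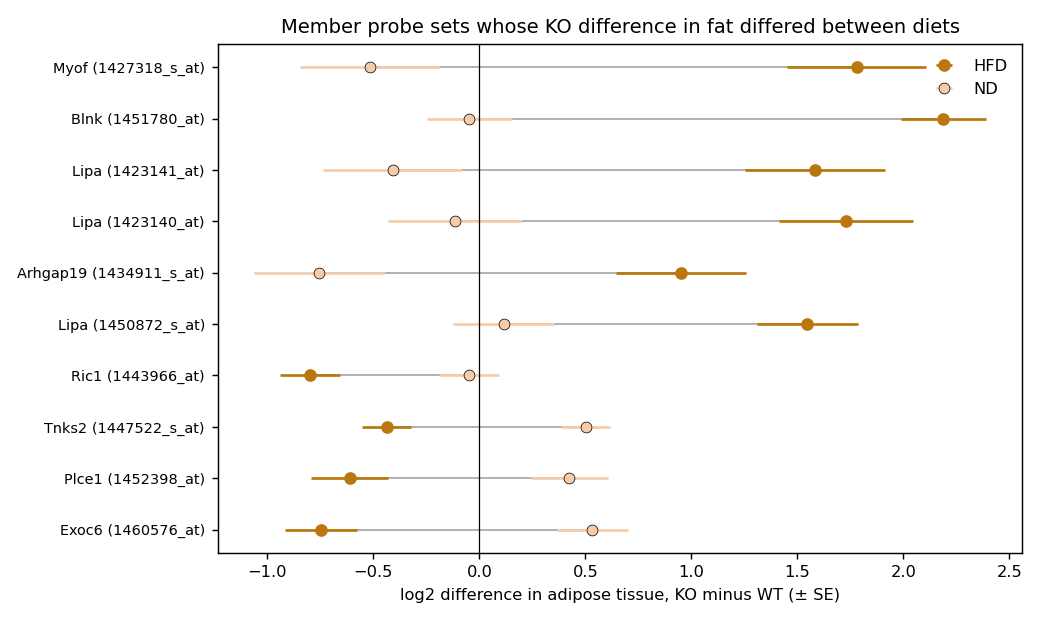
Log2 difference KO minus WT ± SE in adipose tissue on HFD (dark) and ND (light) for the 10 member probe sets whose difference depended on diet. Lines join the diets of a probe set. Myof, Blnk, Lipa and Arhgap19 lie farther right on HFD, and Ric1, Tnks2, Plce1 and Exoc6 farther left.

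Of the 4 nearest members on each side of Ffar4, 4 were tested in both tissues. On the lower side Cep55 and Myof were tested in adipose tissue only, Cyp26a1 in liver only, at 49.85 to 105 on KO and 13.7 to 62.5 on WT ND arrays (1.12, adjusted p = 0.522), and Exoc6 in both. On the upper side Fra10ac1, Plce1 and Noc3l were tested in both, and Pde6c, a cone phosphodiesterase, in neither. Pde6c was 0.2 to 1.19 on all adipose arrays, and in liver on HFD 0.66 to 2.93 on KO and 10.8 to 19.5 on WT arrays.

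Not every member was measured well. Of the 130 probe sets 81 were tested in adipose tissue, 82 in liver, 71 in both and 38 in neither, and 45 genes were tested in adipose tissue and 41 in liver. The 5 genes tested in neither were Kif11, a mitotic kinesin (at most 36.4), Pde6c (19.5), Slit1, an axon guidance protein (50.2), Frat1, a GSK3-binding protein (15.1), and Loxl4, a lysyl oxidase (20.1). A probe set that passed the filter through the group in which it was high had to differ, so the shares above describe the probe sets tested, not all members.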

How the data were processed

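Total RNA of each tissue was copied into cDNA, labelled with biotin and hybridised to Affymetrix arrays. Signals were deposited on a linear intensity scale, computed by the authors with MAS5 per the submitters' processing notes, and the 2% trimmed mean of every array was 100.03 to 100.05. Values were not scaled again. Of 45101 probe sets 64 controls were left out. The platform annotation gave 1 gene to 34945, several to 932 and none to 9160, and 2 probe sets that name a member together with another gene were not used. Positions came from a RefSeq gene table of GRCm38.p6. The 10th percentile of a tissue (1.08 for adipose tissue, 1.10 for liver) served as a floor before taking log2, and probe sets at or above the middle one by mean log2 were tested, which left 22519 per tissue and 19451 in both.

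limma 3.58.1 in R 4.3.3 fitted the 4 groups of a tissue, its variances following mean signal, on 8 residual degrees of freedom, and Benjamini-Hochberg values run over all probe sets tested. Comparisons over both tissues used 1 value per mouse. The same mouse gave both tissues, so samples are paired by design. As a check, departures from the group mean in fat and in liver were correlated per mouse, with r of 0.0407 to 0.137 (over 0.1 for 5 mice of 12). Full statistics went to members called in the mean, up to 6 per stratum and 4 per tissue or diet test, and the 4 nearest on each side. A dim group's fold was set against the filter level. Genes named beyond these were chosen after their values were seen. The procedure was tested on simulated data. Alternatives tried were no filter, quantile normalization, log2(signal + 1) in place of the floor, the brightest probe set per gene, no variance trend, fewer arrays, single mice left out and the mouse as a replicate block. The members, gene groups, markers and tests were chosen with earlier results of these data known.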

Additional observations from a re-analysis of the deposited data

Results flagged for a closer look

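A tested difference between tissues or diets in the effect of genotype drew attention to 14 member probe sets. Between adipose tissue and liver, the log2 KO minus WT difference itself differed by 0.80 ± 0.15 for Avpi1 (limma adjusted p = 0.0255), 0.86 ± 0.18 for Pdlim1 (0.0323), 0.57 ± 0.12 for Mms19 (0.0351) and -0.64 ± 0.15 for Cpeb3 (0.0404), adipose minus liver.

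Between HFD and ND in adipose tissue, the difference was larger on HFD for Blnk (2.24 ± 0.28, limma adjusted p = 0.00356), Myof (2.30 ± 0.46, 0.0152), Arhgap19 (1.70 ± 0.44, 0.0355) and the 3 Lipa probe sets 1423141_at (1.99 ± 0.47, 0.0251), 1450872_s_at (1.43 ± 0.34, 0.0256) and 1423140_at (1.85 ± 0.45, 0.0285). It was lower on HFD for Tnks2 (-0.94 ± 0.16, 0.00804), Exoc6 (-1.28 ± 0.24, 0.0109), Plce1 (-1.04 ± 0.26, 0.0313) and Ric1 (-0.75 ± 0.20, 0.042). With 3 arrays a group, no formal test for single outlying arrays was run.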

How the results depend on the processing

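Of 46 single results, 14 kept their direction and call under every alternative, and over 776 alternatives 182 lost the call and 0 reversed. In the mean over the strata, Pyroxd2, Lcor (1429633_at) and the Lipa probe sets 1450872_s_at and 1423140_at were called in all, Fra10ac1, Ric1 and Cdc37l1 in all but the set without 5 mice below (adjusted p = 0.0763, 0.0794 and 0.0507), while Blnk (12 of 21), Entpd1 (12 of 21), Noc3l (9 of 20) and Tbc1d12 (8 of 21) lost it often.

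Counts of called member probe sets depended on the processing, and so did the shares over all probe sets. With no filter the member counts were 3 in liver on HFD, 3 in liver on ND, 0 for the tissue difference and 4 for the diet difference in fat. In that order, 1.58%, 0.948%, 0.0977% and 2.71% of all probe sets were then called. With the filter the shares were 5.19%, 2.96%, 3.34% and 8.34%. With no variance trend the member counts were 1 in liver on either diet (2.38% of all probe sets on HFD and 0.964% on ND). With only the 6 arrays of the compared groups they were 3 on either (3.81% and 1.92%). With the brightest probe set per gene the mean gave 10 (25.6%, against 15.5% of all probe sets so chosen). With the mouse as a replicate block the adipose ND count was 2, and the block moved no other count by over 1.5 times (20 in adipose HFD, 6 and 8 in liver, 18 in the mean). The balance of directions did move, over the 71 probe sets tested in both tissues. Adipose HFD had 8 higher and 12 lower, in place of 12 and 9. Liver ND had 2 higher and 6 lower, in place of 4 and 3. Of all probe sets the block called 0.972% in adipose ND, 20.9% in adipose HFD, 6.91% and 3.96% in liver and 14.1% in the mean. Without mice 427, 547, 686 and 690, an alternative chosen after seeing the data, the mean gave 7, the tissue difference 1 and the diet difference 4. Leaving out mouse 546 as well, also chosen after seeing the data, lowered these counts and shares further. It left 1 WT mouse per diet, which is assumed to vary like the other groups. Without mice 427 and 547 adipose HFD gave 21 of 84, against 20.7% of all probe sets. Without 427, 546 and 547 both the member count and the share of all probe sets were lower there. Without 686 and 690 the share of all probe sets called in adipose ND was lower too.

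Leaving out 1 mouse at a time gave 14 to 20 in adipose HFD, 0 to 3 in adipose ND (3 without 687), 2 to 4 in liver HFD, 2 to 6 in liver ND, 11 to 16 in the mean, 0 to 3 for the tissue difference, 4 to 19 for the diet difference in fat (19 without 687, 4 without 546, 718 or 720) and 0 for that in liver. The shares of all probe sets called moved too. In adipose tissue they were 10.6% to 19.8% on HFD and 0.0355% to 2.66% on ND. In liver they were 1.45% to 4.49% on HFD and 0.968% to 3.59% on ND. They were 7.55% to 12.7% in the mean and 0.73% to 3.07% for the tissue difference. For the diet difference they were 3.9% to 10.2% in fat and 0.213% to 0.777% in liver. Member probe sets apart with 1 sign in all strata numbered 0 to 2, among them Pyroxd2, Lcor, Pgam1, Tbc1d12 and Noc3l. Of all probe sets, 0.474% to 0.878% were so apart. The cause of these shifts was not tested. Dim probe sets, 38 of 130 under the filter in both tissues, limit what can be said of 5 genes.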
